A study of Mus musculus with 10 samples.

Results

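The cytosolic ribosome is built from a small and a large subunit, and its protein part is encoded by a family of genes named Rps for the small and Rpl for the large subunit. The genes examined were the 84 of 25965 features whose names follow this pattern, together with Rpsa, Rplp0, Rplp1 and Rplp2. Processed pseudogenes with "-ps" names and the S6 kinases were left out by the rule. The 84 genes fall into 77 canonical genes, 31 of the small and 46 of the large subunit, and 7 paralogues, which are Rpl39l, Rpl7l1, Rpl22l1, Rps27l, Rpl10l, Rpl36al and Rpl3l. The table lists Rps3a1 as Rps3a, and Rps4l was not among its rows.

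The data are 10 RNA-seq libraries from male mouse embryonic stem cells (mESCs) of C57/Bl6 background, cultured in 2i/LIF, a defined medium with a pair of kinase inhibitors and the cytokine LIF. Keniry2022 and Mulas2019 name the culture methods. Keniry2022 cells were kept in suspension at higher density in more medium and passaged daily, and Mulas2019 cells were attached to gelatin and passaged less often. The 2 lines were derived under Keniry2022 conditions, divided at passage 0 (p0), and kept for 10 (p10) or 20 (p20) passages under either method. The 5 groups are p0, p10 Keniry2022, p20 Keniry2022, p10 Mulas2019 and p20 Mulas2019, with 2 libraries in each, 1 per line, so that the 4 libraries of a method are 2 lines at 2 passages. The p0 cells had themselves been grown under Keniry2022 conditions, and the same number of days had passed for p20 Keniry2022 and p10 Mulas2019. The labels name no transgene, mutation or drug that separates the groups. Per the study, 1 of the lines lost its Y chromosome while it was derived, before p0.

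Ribosomal proteins are made in near equal numbers, since each ribosome holds a single copy of most of them, and their mRNAs are among the most abundant of growing cells. Most begin with a run of pyrimidines, the terminal oligopyrimidine (TOP) element, through which mTOR signalling sets their translation. A few genes have a paralogue elsewhere in the genome, often an autosomal copy of an X-linked gene that is active in germ cells, where the X chromosome is silenced. Rpl39l, Rpl10l and Rpl36al are autosomal relatives of the X-linked Rpl39, Rpl10 and Rpl36a.

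The pair with the largest difference between the methods was Rpl39l and Rpl39, and its coding sequences are shown because reads of the paralogue can be told from those of its parent. Rpl39l lies at chr16:10170226-10174911 on the plus strand and Rpl39 at chrX:37082520-37085402 on the minus strand (mm10). The sequences below were read from GENCODE vM21, which uses the same build, and capitals mark the bases at which the pair differs.
Rpl39l: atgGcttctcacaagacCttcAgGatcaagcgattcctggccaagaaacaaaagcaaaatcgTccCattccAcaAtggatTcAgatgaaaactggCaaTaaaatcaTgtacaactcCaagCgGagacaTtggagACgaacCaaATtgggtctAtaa
Rpl39: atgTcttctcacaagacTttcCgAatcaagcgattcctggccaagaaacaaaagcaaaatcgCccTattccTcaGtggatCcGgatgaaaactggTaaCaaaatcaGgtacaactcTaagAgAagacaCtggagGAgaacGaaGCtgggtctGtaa
The coding regions are 156 bases each and differ at 23 positions, an identity of 85.3%. The longest run without a difference is 38 bases, shorter than the 75-base reads, so a read that lies wholly within the coding region crosses at least 1 difference.

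Rps27l and Rps27 are shown for the same reason, as the pair with the largest gap in level among the 6 pairs whose ratios were tested. Rps27l lies at chr9:66946086-66949516 on the plus strand and Rps27 at chr3:90212725-90213615 on the minus strand.
Rps27l: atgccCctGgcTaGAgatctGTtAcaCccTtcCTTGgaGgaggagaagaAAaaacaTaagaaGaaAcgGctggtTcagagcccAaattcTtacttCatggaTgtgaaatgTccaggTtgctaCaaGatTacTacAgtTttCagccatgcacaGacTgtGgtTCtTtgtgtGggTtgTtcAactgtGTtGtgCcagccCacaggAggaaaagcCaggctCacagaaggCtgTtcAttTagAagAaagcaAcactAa
Rps27: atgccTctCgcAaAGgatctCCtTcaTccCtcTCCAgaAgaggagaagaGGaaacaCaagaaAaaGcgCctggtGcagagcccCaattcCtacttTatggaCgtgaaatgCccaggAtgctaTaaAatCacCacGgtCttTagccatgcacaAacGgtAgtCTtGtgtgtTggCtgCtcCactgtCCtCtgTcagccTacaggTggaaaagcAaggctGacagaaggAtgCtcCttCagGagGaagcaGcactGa
Here 61 of 255 bases differ, an identity of 76.1%, and the longest identical run is 11 bases. Identity of the coding regions was 87.9% for Rpl36al and Rpl36a, 84.8% for Rpl10l and Rpl10, 66.9% for Rpl22l1 and Rpl22, and 53.0% for Rpl7l1 and Rpl7, gaps counted as differences. No 75-base word of exon sequence was shared between 2 of the 84 genes.

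The 120 bases before the RefSeq start of Rpl39l and Rpl39 are shown because the promoters of a parent and its paralogue need not share sequence. They were taken from RefSeq (GRCm38.p6), at chr16:10170108-10170227 on the plus strand and chrX:37085223-37085342 on the minus strand. The RefSeq start of Rpl39 lies inside the interval the table gives for that gene, so the stretch shown falls within that interval. Capitals mark CCGGAA, the reverse complement of TTCCGG and a form of the site of ETS factors.
Rpl39l: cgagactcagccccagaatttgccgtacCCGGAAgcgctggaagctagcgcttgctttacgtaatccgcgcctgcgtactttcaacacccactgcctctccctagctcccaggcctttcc
Rpl39: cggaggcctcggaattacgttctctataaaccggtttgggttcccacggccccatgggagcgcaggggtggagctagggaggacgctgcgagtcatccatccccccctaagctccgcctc
Windows of 300 bases around the start were found for 63 of the 84 genes, and 31 of them (49.2%) held TTCCGG on either strand, among them those of Rpl39l, Rps27l and Rpl7l1. Of all 27025 windows, 15.2% held it. The letters CTTT between 10 bases before and 15 after the start, on the gene strand, were in 17 of 63 windows (27.0%) and in 9.61% of all windows. Rpl39l was the paralogue among these 17. CACGTG, the E-box of MYC, was in 7.94% of the windows of these genes on either strand and in 7.24% of all, and in no window of a paralogue. TATAAA within 50 bases before the start was in 1.59% and 2.88%, and the window of Rpl22l1 was the one that held it.

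Values are log2 RPKM, a read count scaled to exon length and library size, as deposited. The library totals lay between 24053996 and 30236823 reads, and no date or batch is given in the labels. The share of them in features was 88.1% to 88.8% in the Keniry2022 libraries and 86.0% to 87.1% in the Mulas2019 libraries, without overlap. At p0 it was 87.7% and 88.1%. The part of this share in the differences below was not tested. All 8 mESC markers examined, Pou5f1, Sox2 and Nanog among them, lay between 4.96 and 9.23 on the log2 scale in every library. Their summed RPKM was 1409 to 1543 in the Keniry2022 libraries and 1298 to 1322 in the Mulas2019 libraries. The 6 primitive endoderm markers were at most 0.02 and the 6 fibroblast markers at most -0.04, with no read for Postn. Of 5 trophoblast markers, 2 had a mean above 0, and the highest value of a single marker was 5.01 on the log2 scale. The summed RPKM of the 5 was 22.6 to 26.9 in the Keniry2022 libraries and 27.8 to 35.1 in the Mulas2019 libraries. This sum rests mostly on the 2 markers with a mean above 0, so it is not a measure of trophoblast cells. The part of such cells in the differences below was not tested, and in bulk samples fewer cells of a type and less RNA per cell cannot be told apart.

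The 84 genes together took 2.14% to 2.28% of the reads in features in the 4 Keniry2022 libraries and 1.97% to 2.02% in the 4 Mulas2019 libraries. At p0 they took 3.97% in replicate 1 and 2.40% in replicate 2. The groups under the methods did not overlap, and both p0 libraries were above all 8 others. The 7 paralogues held 4.55% to 4.79% of the ribosomal protein reads under Keniry2022, 3.86% to 4.26% under Mulas2019, and 4.82% and 4.41% at p0, so their share of the family was also higher in each Keniry2022 library than in any Mulas2019 library.

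**Figure D1:**
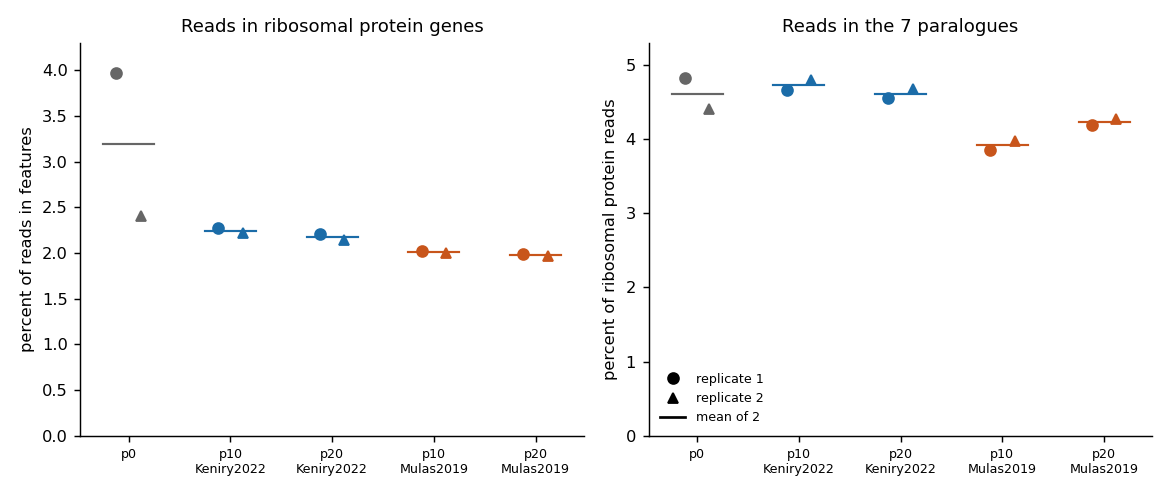
Percent of the reads in features that fell in the 84 ribosomal protein genes (left) and percent of those reads in the 7 paralogues (right), per library in 5 groups, with lines at the mean of 2 libraries. The p0 replicate 1 library stands at 3.97% on the left, and on both sides the 4 Keniry2022 libraries lie above the 4 Mulas2019 libraries.

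The p0 replicate 1 library stood apart. There 83 of 84 genes were higher than in p0 replicate 2, with Rpl24 the exception, and the median difference was 0.76 on the log2 scale. Over all 11561 features tested the median difference between these libraries was 0.02, and 51.9% were higher in replicate 1. Relative to the mean of the 8 cultured libraries, the median over the 83 tested genes was 0.93 in p0 replicate 1 and 0.16 in p0 replicate 2. It was 0.03 to 0.11 in the Keniry2022 libraries and -0.10 to -0.05 in the Mulas2019 libraries. Results that use p0 are therefore given with and without replicate 1. Summed reads of Y-linked genes were 132 in p0 replicate 1 and 8140 in p0 replicate 2, so these libraries are also of different lines. Line and library cannot be told apart in this difference.

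**Figure D2:**
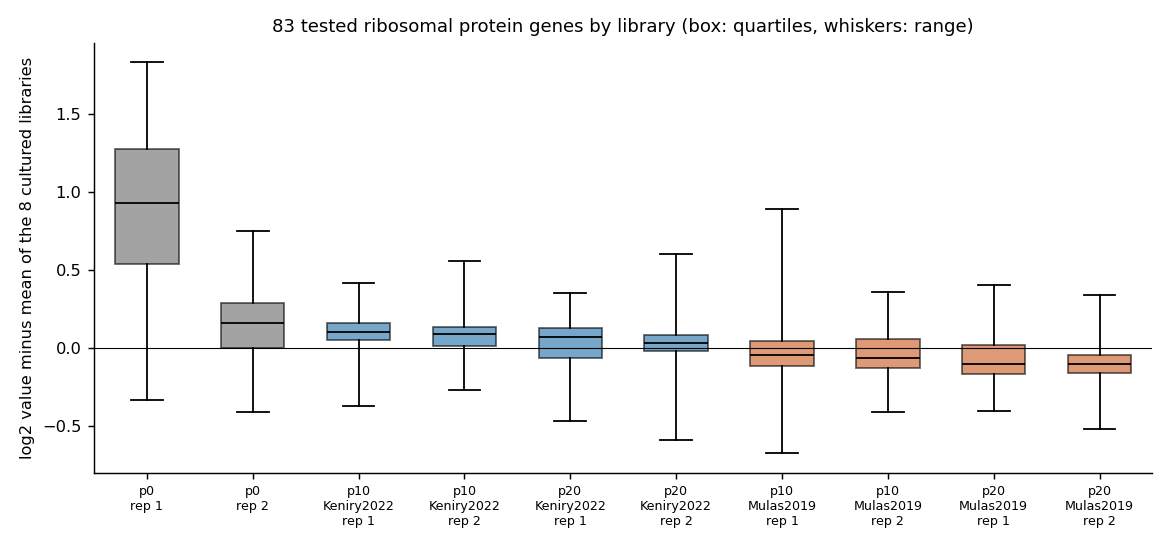
Log2 value of each of the 83 tested genes minus its mean over the 8 cultured libraries, by library, with boxes at the quartiles and whiskers over the range. The box of p0 replicate 1 has its median at 0.93, and the medians of the 4 Keniry2022 libraries lie above 0 and those of the 4 Mulas2019 libraries below 0.

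Levels within the family spread widely although the proteins are made in near equal numbers. The highest mean levels over the 10 libraries, in log2 RPKM, were 10.73 for Rpl8 and 10.70 for Rpl4, proteins of the large subunit core, and 10.33 for Rplp1, of the ribosomal stalk. Rpl32, also of the large subunit, had 9.81. The lowest were -0.69 for Rpl3l, the striated muscle paralogue of Rpl3, 1.93 for Rpl23a, 1.96 for Rps27, 2.27 for Rpl17 and 2.28 for Rpl11. Among the stalk proteins, Rplp0 had a mean level of 9.13, Rplp1 of 10.33 and Rplp2 of 4.80. Rpl5 and Rpl11, which bind Mdm2 when ribosome assembly stalls, had mean levels of 3.28 and 2.28. The X-linked genes were at 7.99 for Rps4x, 5.43 for Rpl39, 3.84 for Rpl10 and 3.0 for Rpl36a. The values of Rpl8 and Rpl4 overlapped under Mulas2019, those of Rpl8 were above those of Rpl4 under Keniry2022, and Rplp1 was below both in every cultured library. At the other end the values of Rpl23a and Rps27 overlapped under both methods.

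Much of the sequence of these genes recurs in processed pseudogenes, and how reads with several alignments were treated is not given in the sources used here. Of the 75-base words in the exons of each gene, a median of 69.1% occurred in no other annotated gene. In 25 of the genes the share was below 50%, in 4 it was 100%, and 79 shared a word with a pseudogene. Rpl5 had 15.9% such words, Rpl36a 15.4% and Rpl23a 18.3%, against 96.1% for Rpl8 and 91.5% for Rpl4. Spearman's correlation between this share and the mean level was 0.37 over the 84 genes, which share libraries and depth. The exons of 16 genes overlap the span of another feature, introns included, such as Rpl12 with Lrsam1 and Rpl15 with Nkiras1. Strand use in counting is not given, and whether reads of such pairs can be told apart was not tested. Low levels of a canonical gene are therefore uncertain as levels.

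Among paralogues, Rps27l had the highest mean level at 7.88, followed by Rpl10l at 7.16, Rpl22l1 at 6.79, Rpl7l1 at 6.73, Rpl36al at 6.62 and Rpl39l at 6.27. Rpl3l failed the filter on low values and was not tested. It was listed between -1.28 and -0.91 in the Keniry2022 libraries, between -0.59 and -0.01 in the Mulas2019 libraries, and at -0.22 and -0.85 at p0, with a mean of 28 reads per library. All 75-base words of Rpl39l and Rpl3l occurred in no other gene (100%), and the share was 99.7% in Rpl10l and 96.9% in Rpl7l1.

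The main question of the series is whether the culture method changes expression, and the pooled comparison of p10 and p20 addresses it with 4 libraries per method. Ribosomal protein genes were mostly higher under Keniry2022. Of the 83 tested genes, 45 were higher and 8 lower by limma's test with Benjamini-Hochberg adjustment over all 11654 features, at a threshold of 0.05. Over all features 25.9% were higher and 25.5% lower. The median log2 difference was 0.17 over the 83 genes, 0.16 over the 77 canonical genes, 0.32 over the 6 tested paralogues and -0.00 over all features. Of the canonical genes 39 were higher and 8 lower, 17 and 1 of the 31 small subunit genes and 22 and 7 of the 46 large subunit genes. All 6 tested paralogues were higher. The median over the 83 genes was 0.06 with quantile normalisation and 0.11 after correcting for the length and GC content of exons. The counts also depended on these settings: 23 were higher and 9 lower with quantile normalisation, and 33 and 12 after the correction. In these fits 23.1% and 24.5% of all features were higher and 22.9% and 22.2% lower. In the model of all 10 libraries, whose spread includes p0, 4 were higher and 3 lower, against 8.65% and 10.6% of all features.

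**Figure D3:**
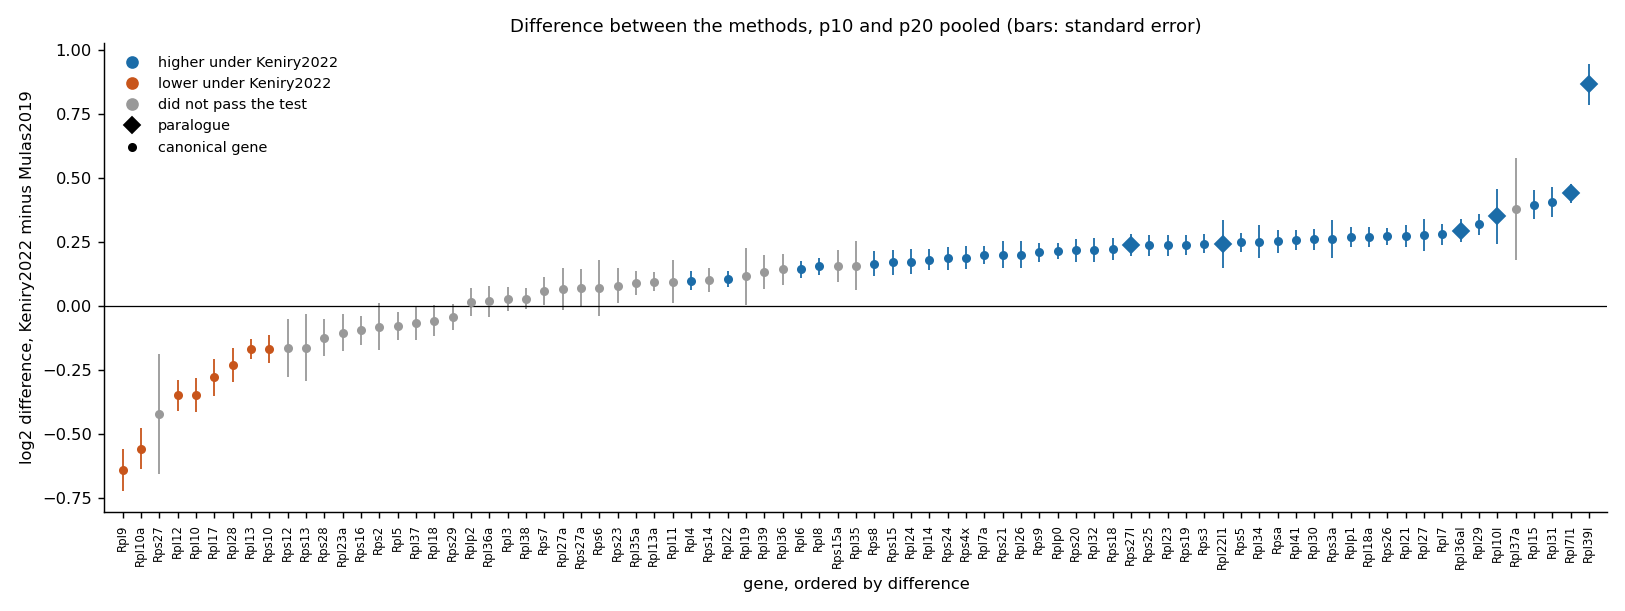
Log2 difference between Keniry2022 and Mulas2019 with its standard error for 81 of the 83 tested genes, ordered by size, with paralogues as diamonds. Rpl39l stands at the upper end with 0.87 and Rpl9 at the lower end with -0.64, and most genes lie between 0 and 0.30.

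The genes higher under Keniry2022 were mostly those at high levels. Split at a mean level of 6, a value chosen after the data were seen, 37 of 45 genes above it (82.2%) were higher and 0 lower. Below it 8 of 38 (21.1%) were higher and 8 lower. The same split of all features gave 60.9% higher and 8.94% lower among the 884 above and 23.1% and 26.9% among the 10770 below, so the split by level was not particular to the ribosome. The median difference above the split was 0.22 for the ribosomal protein genes and 0.17 for all features. Spearman's correlation of the difference with level was 0.51 over the 83 genes, with the share of unique words 0.30 and with exon length -0.07, with libraries and depth shared by all points. Ranges of the 4 libraries per method did not overlap for 41 genes that were higher and 7 that were lower, and did not overlap for 23.1% and 23.4% of all features in these directions.

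**Figure D4:**
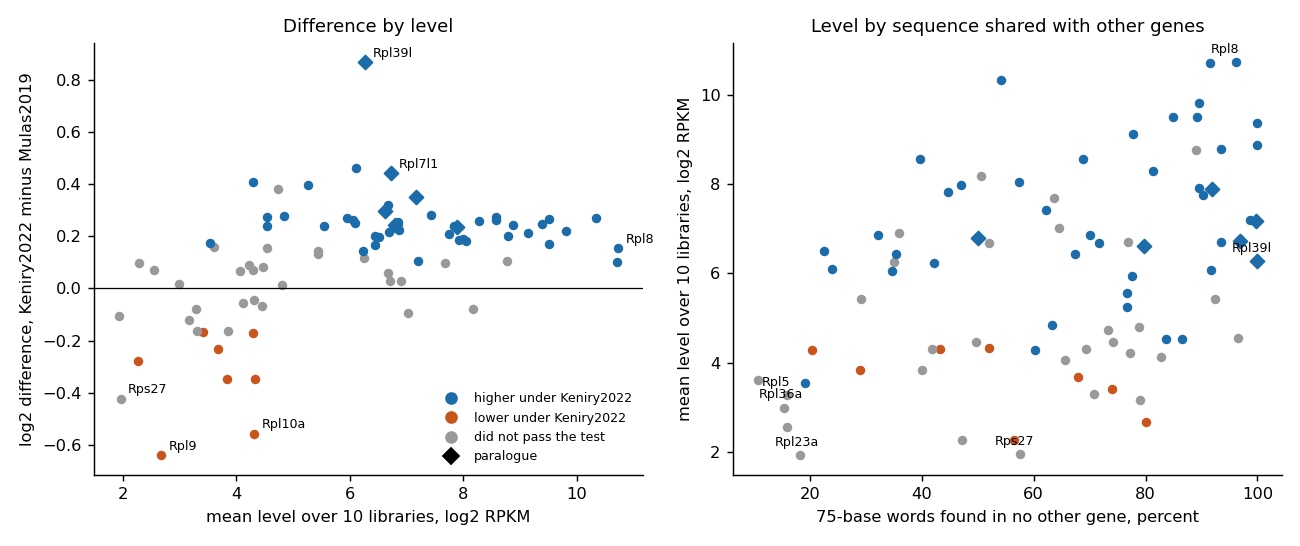
Log2 difference between the methods against mean level (left) and mean level against the percent of 75-base words found in no other gene (right) for the 83 tested genes, coloured by the outcome of the test. The 8 genes that were lower under Keniry2022 all have mean levels of at most 4.32, and genes such as Rpl5, Rpl36a and Rpl23a combine few unique words with low levels.

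Rpl39l had the largest difference of the family. Its log2 RPKM was 6.59, 6.73, 6.49 and 6.61 under Keniry2022, 5.50, 5.76, 5.90 and 5.79 under Mulas2019, and 7.21 and 6.12 at p0, where libraries are in the order p10 replicates 1 and 2, then p20 replicates 1 and 2. Every Keniry2022 library was above every Mulas2019 library, and both p0 libraries were above the Mulas2019 libraries too. The difference was 0.87 ± 0.08 (standard error, adjusted p = 5.11e-05). Rpl7l1, an Rpl7 relative, was at 6.95, 6.91, 6.83 and 6.83 under Keniry2022 and 6.44, 6.39, 6.43 and 6.49 under Mulas2019, with 7.14 and 6.84 at p0. These groups did not overlap either, and the difference was 0.44 ± 0.04 (adjusted p = 4.37e-05).

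Rpl10l, an autosomal copy of Rpl10 needed in male meiosis, was at 7.29, 7.33, 7.17 and 7.34 under Keniry2022 and 6.60, 6.88, 7.22 and 7.04 under Mulas2019. The p20 Mulas2019 replicate 1 library reached into the Keniry2022 range, and the difference of 0.35 ± 0.11 (adjusted p = 0.0211) did not pass without p10 Keniry2022 replicate 2 (adjusted p = 0.052), p20 Keniry2022 replicate 2 (0.0527) or p10 Mulas2019 replicate 2 (0.0521). It was 0.195 with quantile normalisation (adjusted p = 0.201) and 0.24 after the length and GC correction (adjusted p = 0.0824), where it did not pass either. Rpl36al was at 6.62, 6.64, 6.60 and 6.54 under Keniry2022 and 6.41, 6.32, 6.27 and 6.21 under Mulas2019, without overlap and with a difference of 0.29 ± 0.05 (adjusted p = 0.000577).

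Rps27l, a target of p53, was at 7.87, 7.81, 7.81 and 7.71 under Keniry2022 and 7.54, 7.56, 7.51 and 7.64 under Mulas2019. The groups did not overlap, the difference was 0.24 ± 0.04 (adjusted p = 0.00131), and it was 0.03 after correction for length and GC (adjusted p = 0.464). Rpl22l1, which with Rpl22 forms a pair that regulate each other, was at 6.61, 6.68, 6.91 and 6.53 under Keniry2022 and 6.61, 6.45, 6.22 and 6.47 under Mulas2019. These groups overlapped. Its difference of 0.24 ± 0.09 had an adjusted p of 0.0495, and it passed in 7 of 20 alternatives. Leaving out p20 Keniry2022 replicate 1 gave 0.17 (adjusted p = 0.118), and leaving out p20 Mulas2019 replicate 1 gave 0.17 (adjusted p = 0.125).

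The ratio of each paralogue to its parent within a library was compared next, because a uniform shift of the whole family cancels in it. A shift that depends on level does not cancel where the pair differs in level. Mean levels were 7.16 for Rpl10l and 3.84 for Rpl10, and 6.62 for Rpl36al and 3.0 for Rpl36a. The log2 ratio of Rpl39l to Rpl39 was 1.32, 1.40, 1.10 and 1.47 under Keniry2022, 0.23, 0.61, 0.90 and 0.63 under Mulas2019, and 0.27 and 0.50 at p0. The Keniry2022 libraries were above all others, and the p0 libraries lay within the range of the Mulas2019 libraries. The mean difference between the methods was 0.73. Levels of the parent Rpl39 had a mean of 5.28 ± 0.10 (SD, n = 4) in the Keniry2022 libraries and 5.15 ± 0.11 in the Mulas2019 libraries, and their difference of 0.13 ± 0.07 did not pass (limma, adjusted p = 0.112).

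The ratio was also higher in every Keniry2022 library than in any Mulas2019 library for Rpl7l1 to Rpl7, by 0.16, for Rpl10l to Rpl10, by 0.70, and for Rpl36al to Rpl36a, by 0.28. For these 4 pairs the exact two-sided permutation test of 4 against 4 libraries gave p = 0.0286, the smallest it allows, and an adjusted p of 0.0429 over 6 pairs. The ratios of the remaining pairs overlapped between the methods. For Rps27l to Rps27 the difference was 0.66 (exact p = 0.114, adjusted 0.137), and for Rpl22l1 to Rpl22 it was 0.14 (exact p = 0.314). With quantile normalisation or the length and GC correction the 4 pairs kept their direction but no longer passed (adjusted p of 0.0571 to 0.206). The 4 libraries of a method share 2 lines, so these p-values rest on fewer independent cultures than libraries. The same holds for the standard errors and adjusted p-values of the pooled limma comparison.

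**Figure D5:**
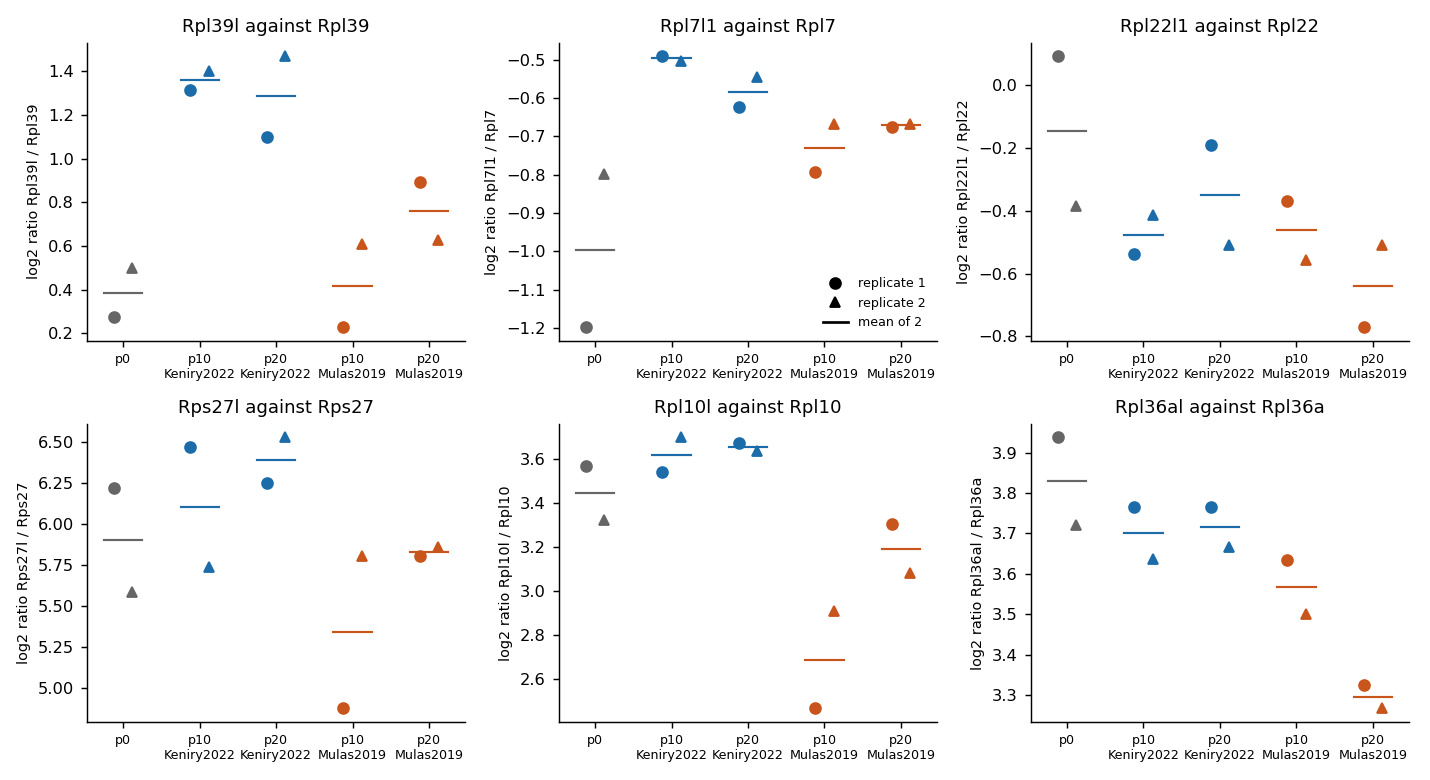
Log2 ratio of 6 paralogues to their parent genes in each library of the 5 groups, with lines at the mean of 2 libraries and a separate scale per panel. In the panels of Rpl39l, Rpl7l1, Rpl10l and Rpl36al the 4 Keniry2022 libraries lie above the 4 Mulas2019 libraries, and the Rpl39l ratio at p0 is 0.27 and 0.50.

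The parents did not move in 1 direction. Keniry2022 libraries had more Rpl7, by 0.28 ± 0.04 (adjusted p = 0.000364), and more Rpl22, by 0.11 ± 0.03 (adjusted p = 0.0187), although with quantile normalisation Rpl7 was at 0.10 (adjusted p = 0.0611) and Rpl22 at -0.06. Rpl10 was lower by 0.35 (SE 0.07, adjusted p = 0.00175), so that its pair with Rpl10l moved from both sides. Rpl3 differed by 0.03 (adjusted p = 0.64), Rpl36a by 0.02 (adjusted p = 0.813) and Rps27 by -0.42 (adjusted p = 0.157), none of which passed. Rps27 had a mean of 29.1 reads per library, and in p10 Mulas2019 replicate 1 it was at 2.66 against 1.70 to 1.78 in the other Mulas2019 libraries.

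Among the canonical genes with large positive differences were Rpl31 and Rpl15, both known as genes mutated in Diamond-Blackfan anaemia. Rpl31 was at 4.42, 4.43, 4.21 and 4.38 under Keniry2022 and 3.90, 4.08, 3.92 and 3.93 under Mulas2019. Its libraries differed between the methods by 0.41 ± 0.06 (adjusted p = 0.000424). Rpl15 was at 5.42, 5.44, 5.29 and 5.34 against 4.87, 4.91, 5.10 and 5.02, a difference of 0.40 ± 0.06 (adjusted p = 0.000367). Neither gene overlapped between the methods, though exons of Rpl31 overlap the span of Tbc1d8 and those of Rpl15 the span of Nkiras1.

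Rpl29, Rpl7, Rpl27, Rpl21 and Rps26 followed, with differences between 0.27 and 0.32 and no overlap between the methods. Rps26, a small subunit protein at the mRNA exit site, was at 8.60, 8.60, 8.57 and 8.56 under Keniry2022 and 8.25, 8.34, 8.29 and 8.35 under Mulas2019, and differed by 0.27 ± 0.03 (adjusted p = 0.000157). The most abundant genes differed less. Rpl8 was higher by 0.16 ± 0.03 (adjusted p = 0.00366), while Rpl4, at 0.10 ± 0.04, had an adjusted p of 0.0467 and passed in 6 of 20 alternatives. With quantile normalisation Rpl8 was at 0.06 (adjusted p = 0.0674). Of the other abundant or stalk genes, Rpl32 (0.22), Rplp0 (0.21) and Rplp1 (0.27) were higher, and Rplp2 was at 0.02 (adjusted p = 0.836). Rpl32 was at 0.11 after the length and GC correction (adjusted p = 0.0805). Rps4x was higher by 0.19, but was at 0.07 with quantile normalisation (adjusted p = 0.139) and at 0.09 after the correction (adjusted p = 0.104). Rpl5 was at -0.08 (adjusted p = 0.26) and Rpl11 at 0.10 (adjusted p = 0.364).

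The 8 genes lower under Keniry2022 were Rpl9, Rpl10a, Rpl12, Rpl10, Rpl17, Rpl28, Rpl13 and Rps10. Rpl9 was at 2.52, 2.43, 2.23 and 2.31 under Keniry2022 and 3.20, 2.93, 3.0 and 2.91 under Mulas2019, with 2.85 and 2.40 at p0. Rpl10a, the protein of the L1 stalk that guides tRNA out of the ribosome, was at 4.13, 4.26, 3.95 and 3.94 under Keniry2022 and 4.53, 4.53, 4.75 and 4.69 under Mulas2019, with 4.41 and 3.94 at p0. Both genes were lower in every Keniry2022 library, by 0.64 (SE 0.08, adjusted p = 0.000218) and 0.56 (SE 0.08, adjusted p = 0.000365). Rpl12, of the base of the stalk, was at 4.21, 4.16, 3.99 and 3.98 against 4.45, 4.44, 4.35 and 4.49, and Rpl10, which joins the large subunit late in its assembly, at 3.75, 3.63, 3.49 and 3.70 against 4.13, 3.97, 3.91 and 3.96. The other differences were -0.28 for Rpl17, -0.23 for Rpl28, -0.17 for Rpl13 and -0.17 for Rps10. Rps10 did not pass without p10 Keniry2022 replicate 1 (adjusted p = 0.0748), p10 Keniry2022 replicate 2 (0.0631) or p20 Mulas2019 replicate 1 (0.0715). The median share of unique words was 54.2% in the 8 genes and 77.5% in the 45 genes that were higher. Exons of 3 of the 8, Rpl12, Rpl13 and Rps10, overlap the span of another feature. The part of shared reads in these differences was not tested.

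In the pooled comparison, 6 genes passed in the main test and in all 20 alternatives: Rpl39l, Rpl7l1 and Rpl15 among those higher under Keniry2022, and Rpl9, Rpl10a and Rpl10 among those lower.

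The methods were compared at each passage and at matched days within the model of all 10 libraries. At p10 the median difference of the 83 genes was 0.14 and 63 were positive. There 2 genes passed as higher, Rpl7l1 (0.51 ± 0.10, adjusted p = 0.0258) and Rpl10l (0.58 ± 0.14, adjusted p = 0.0493), with 3.76% of all 11561 features higher, and 0 as lower, with 4.77% lower. Rpl39l differed by 1.03 ± 0.30 with an adjusted p of 0.0714. At p20 the median was 0.18, and 1 gene passed, Rpl10a, at -0.78 ± 0.14 (adjusted p = 0.0404), with 0.614% of features higher and 1.54% lower. For p20 Keniry2022 against p10 Mulas2019, matched in days, the median was 0.14 and Rpl9 (-0.80, adjusted p = 0.0319) and Rpl10 (-0.45, adjusted p = 0.0453) passed as lower, with 2.84% and 3.59% of features higher and lower.

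These counts rested on the p0 libraries, which set much of the spread in that model. Without p0 replicate 1, 37 genes were higher and 6 lower at p10, against 24.9% and 23.0% of features. At p20 they were 41 and 9, against 18.6% and 17.6%, and at matched days 34 and 9, against 22.8% and 20.3%. Without p0 replicate 2 the counts were 37 and 6 at p10 (25.1% and 23.0% of features), 41 and 9 at p20 (18.7% and 17.6%) and 33 and 9 at matched days (22.9% and 20.2%). The method-by-passage interaction gave 0 genes by limma and 0 by voom, and 0% of all features. At an unadjusted p under 0.05 there were 0 genes, against 405 of all 11561 features.

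Against the starting cells, the median differences of ribosomal protein genes were negative under both methods and farther from 0 under Mulas2019. The median difference from p0 was -0.45 at p10 and -0.48 at p20 under Keniry2022, with 2 and 1 of 83 genes positive. It was -0.62 at p10 and -0.69 at p20 under Mulas2019, with 6 and 3 positive. Without p0 replicate 1 the medians were -0.07 and -0.11 under Keniry2022, with 28 and 18 genes positive, and -0.24 and -0.27 under Mulas2019, with 21 and 15 positive. The medians over all features lay between 0.00 and 0.03. Both methods are set against the same p0 libraries, so these values are not independent.

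Under Keniry2022, 0 genes passed against p0 by limma at either passage, with 0.0432% of features higher and 0.156% lower at p10 and 0.0519% and 0.147% at p20. At an unadjusted p under 0.05 there were 29 genes at p10 and 39 at p20, against 2860 and 3237 of all 11561 features. Voom also called 0 of the ribosomal protein genes. Under Mulas2019, 37 genes were lower and 0 higher at p10, with 17.3% of features lower and 15.7% higher, and 36 were lower and 1 higher at p20, with 14.6% lower and 14.7% higher. Paralogues made up 5 of those lower at p10 and 3 at p20. Large decreases at p10 were in Rps27l (-1.13, adjusted p = 0.048) and Rpl39 (-1.06, adjusted p = 0.0495). At p20 they were in Rpl22l1 (-1.34, adjusted p = 0.0383) and Rpl37a (-1.22, adjusted p = 0.0204), and Rpl10a was higher, by 0.55 ± 0.14 (adjusted p = 0.0306). In p0 replicates 1 and 2, Rps27l was at 9.38 and 7.97 and Rpl39 at 6.93 and 5.62. Their p10 Mulas2019 means were 7.55 and 5.22. Rpl22l1 was at 8.39 and 6.99 at p0 and Rpl37a at 5.38 and 5.33, with p20 Mulas2019 means of 6.35 and 4.13. The decreases in Rps27l, Rpl39 and Rpl22l1 were thus smaller against p0 replicate 2 alone.

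The p0 comparisons also depended on which p0 library stayed. Without p0 replicate 1, 5 genes at p10 and 9 at p20 were lower in Keniry2022 cells, against 2.82% and 2.39% of features. In Mulas2019 cells 44 were lower at both passages, against 20.6% and 18.7%. Without p0 replicate 2 these counts were 77, 78, 73 and 77, against 32.1%, 33.0%, 35.8% and 34.0%. Leaving out any one of the 8 cultured libraries left fewer of these genes called for Mulas2019, and fewer of all features. The median difference from p0 then lay between -0.66 and -0.61 at p10 and between -0.70 and -0.69 at p20.

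Between p10 and p20 within a method no gene passed: limma and voom both gave 0 genes under Keniry2022 and 0 under Mulas2019. By limma 0% of all features passed. At an unadjusted p under 0.05 there were 0 and 1 genes, against 289 and 772 of all 11561 features. The median difference of p20 from p10 was -0.06 under Keniry2022 and -0.04 under Mulas2019.

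Other genes of the pathway were examined in the pooled comparison from lists written with earlier results known. The shares over all features in that comparison were 25.9% higher and 25.5% lower, and 60.9% and 8.94% among features above a mean level of 6. Fau, which encodes a ribosomal protein fused to a ubiquitin-like part, was at 0.09 and did not pass (adjusted p = 0.231). Of the 8 dedicated chaperones that guard new ribosomal proteins before assembly, 8 were higher and 0 lower, with a median of 0.23. Aamp, which guards Rpl10, was higher by 0.33 ± 0.03 (adjusted p = 8.39e-05), and Grwd1, which guards Rpl3, by 0.29 ± 0.04 (adjusted p = 0.000258). Of 15 other mRNAs of the TOP class, 9 were higher and 1 lower, with a median of 0.11. The elongation factor subunit Eef1d was higher by 0.38 ± 0.03 (adjusted p = 4.37e-05) and the initiation factor subunit Eif3e by 0.34 ± 0.06 (adjusted p = 0.00114), while the elongation factor Eef2 was lower by 0.17 (SE 0.04, adjusted p = 0.0043).

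Of the 8 regulators of TOP mRNAs, 1 was higher and 2 lower, with a median of -0.01. The RNA-binding protein gene Larp4 was higher by 0.12 ± 0.04 (adjusted p = 0.0423). Mtor, the kinase, was lower by 0.18 (SE 0.05, adjusted p = 0.0078) and Eif4ebp2, a translational repressor it controls, by 0.14 (SE 0.05, adjusted p = 0.0362). Larp1, which binds the TOP element, was at 0.01 (adjusted p = 0.916).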

How the data were processed

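RNA-seq libraries (TruSeq, 75-base single-end reads) from 10 samples were used. The authors deposited 1 table of log2 values. It is named log CPM, but the values are log2 RPKM, with 0 reads entered as 0.9 reads. Whole reads were recovered from the steps of the values, by searching for each feature an exon length that makes its reads whole in every library. That 100% were whole within 0.1 reads follows from this search and is no check of it. Per the study, reads were aligned to mm10 with HISAT2 and quantified in SeqMonk, while TopHat2 2.0.12 and bcl2fastq are the tools in the submitters' processing notes. Which annotation release and strand setting were used, and how reads with several alignments were treated, is not stated in those sources. The exon length implied by the table was within 5% of GENCODE vM21 for 47 of the 84 genes. No value column was left unused.

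Tests used limma 3.58.1 in R 4.3.3 on the deposited log2 values (moderated test with intensity trend, two-sided, Benjamini-Hochberg over all features, threshold 0.05, log2 above 0 in at least 50% of libraries). The limma trend method replaced the authors' edgeR and voom steps because the values are log2. The pooled comparison used 8 libraries without a block, as in the study, and the others 1 model of 5 groups. Log2 ratios of 6 pairs were compared by exact permutation (scipy 1.17.1). Motif and word searches used Python 3.11.15. The fit was tested on simulated data. The members, pairs and gene lists were chosen with earlier results of these data known. Genes named are all paralogues and parents, the 8 largest called differences each way in the pooled comparison and the 3 largest each way elsewhere, the 5 highest and lowest levels, X-linked and stalk genes, Rpl5 and Rpl11, genes failing the filter, and the 2 largest called each way in each list. Any other gene named was chosen after its values were seen. A few genes that the rule picks are not reported here, though they stay in the counts.

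Replicate numbers mark lines in the study, but p20 Keniry2022 deviated opposite to its numbers (correlations of -0.12 to -0.70 with the other groups, against 0.17 to 0.63 among those). Per the study, 1 line had lost its Y chromosome before p0. Summed reads of 4 Y-linked genes were 13 to 132 in replicate 1 (132 at p0) and 4578 to 8140 in replicate 2 (8140 at p0) of the other groups. In p20 Keniry2022 they were 6659 and 48, against the numbering of the other groups. A block with these numbers exchanged was therefore added after seeing the data. Alternatives covered filters, scaling, voom on recovered reads, trend, quality weights, length and GC, blocks and single libraries left out.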

Additional observations from a re-analysis of the deposited data

Results flagged for a closer look

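In 92 sets of 4 libraries (a gene, ratio or share under 1 method), 6 held a library far from the other 3 by Dixon's ratio, where chance marks about 1 in 20 sets. Of these, 2 belong to p10 Mulas2019 replicate 1 through Rps27: its level was 2.66 against 1.70 to 1.78, and the log2 ratio of Rps27l to Rps27 was 4.88 against 5.80 to 5.86. In the same library the ratio of Rpl7l1 to Rpl7 was -0.792 against -0.67 to -0.67 in the others. Rpl31 was at 4.08 in p10 Mulas2019 replicate 2, against 3.90 to 3.93. Rpl29 was at 6.32 in p20 Mulas2019 replicate 2, against 6.44 to 6.45. Rplp2 was at 4.66 in p20 Keniry2022 replicate 1, against 4.79 to 4.80.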

How the results depend on the processing

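In the pooled comparison the 53 genes called became 32 with quantile normalisation and 7 in the model of all 10 libraries, and lay between 49 and 59 with single libraries left out. Among 39 genes named and tested, together with the median of the family, 715 of 798 values under alternatives kept their direction and side of the threshold. Values changed sign with quantile normalisation for Rpl22 (-0.0602), Rpl3 (-0.105), Rpl4 (-0.041) and Rplp2 (-0.0696), and with the length and GC correction for Rpl3 (-0.0564), Rpl36a (-0.0697) and Rpl4 (-0.0179). With single libraries left out, Rpl36a ranged from -0.0189 (without p10 Keniry2022 replicate 2) to 0.0439, with -0.0135 without p10 Mulas2019 replicate 1, and Rplp2 from -0.0261 (without p20 Mulas2019 replicate 2) to 0.0492. Rpl37a was at 0.38 (adjusted p = 0.137) and passed at 0.592 without p10 Mulas2019 replicate 1 (adjusted p = 0.00545). The cause of these changes was not tested.

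Calls over all 11561 features moved with the same settings. Library quality weights called 3052 higher and 2828 lower at p10, 2072 and 2007 at p20, and 2450 and 2173 at matched days. The length and GC correction called 960 and 1001, 406 and 429, and 719 and 748. Of the ribosomal protein genes, 2 were called at p10 in the model of 5 groups, 42 with weights and 11 with the correction. The count was 1 with the stricter filter, no filter, no trend, median centring or the replicate block. At p20 the count was 1, and it was 41 with weights, 9 with the correction, and 0 with the stricter filter, median centring or either replicate block. At matched days it was 2, and it was 35 with weights, 11 with the correction, 4 with quantile normalisation, and 1 with the stricter filter, median centring, no filter, no trend or the replicate block. With single libraries left out, the ranges were 0 to 43 at p10, 0 to 50 at p20 and 0 to 43 at matched days. The upper ends of these ranges came from fits without a p0 library, which also called more of all features, with the shares given in the Results. The counts of 0 came from fits without a cultured library, which called fewer of all features than the model of 5 groups with every library. These ranges thus moved with the calls over all features. Against p0, weights gave 0 for Mulas2019 at both passages, as they did over all features. With no filter 1777 of 19341 features were lower and 1664 higher for Mulas2019 at p10, and 1324 and 1581 at p20. Among the ribosomal protein genes, no filter gave 11 at p10 and 12 at p20. The correction gave 1 for Keniry2022 at p10, where it called 61 features lower and 35 higher. Single libraries left out gave 0 to 78 and 0 to 79 for Keniry2022 at p10 and p20 and 0 to 74 and 0 to 79 for Mulas2019. The upper ends here came from the fit without p0 replicate 2, which also called more of all features. The counts of 0 came from fits without a cultured library, which called fewer of all features than the fit with every library. Weights gave 1 gene for Mulas2019 p20 against p10, with 341 of all features higher and 171 lower.

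For the ratios, the smallest p is 0.0571 with 1 library left out and 0.125 when signs are flipped within replicate pairs, so those tests cannot pass and say nothing about stability. The replicate block gave adjusted p = 0.188 with unchanged differences for Rpl39l (0.734), Rpl7l1 (0.16), Rpl10l (0.699) and Rpl36al (0.277), and so did the exchanged numbers. Quantile normalisation gave 0.694, 0.223, 0.569 and 0.126 for these pairs, and the length and GC correction 0.64, 0.203, 0.676 and 0.263, with adjusted p of 0.0571 to 0.206 in these 8 cases. The ratio of Rpl22l1 to Rpl22 was -0.0361 with the correction. With single libraries left out the differences were 0.613 to 0.836 for Rpl39l, 0.13 to 0.188 for Rpl7l1, 0.424 to 0.829 for Rps27l, 0.541 to 0.821 for Rpl10l, 0.222 to 0.344 for Rpl36al and 0.0641 to 0.2 for Rpl22l1. The replicate block changed no other count by over 1.5 times.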
